A study of Quercus robur with 165 samples.

Results

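The 60 genes that held the largest mean share of the counts were described in roots of pedunculate oak (*Quercus robur*) seedlings. The share of a gene in a library was its expected count, the number of paired reads assigned to it, divided by the sum over all genes, and it was averaged over all libraries. Genes listed for RT-qPCR in the study were removed from the ranking, and of these *EF* alone stood high enough to be concerned, as gene 10 of all with a mean share of 0.321%. The remaining 60 genes, 0.17% of the 35397 genes in the files, held 16.5% of the counts on average. Their mean shares chose them, so that the shares are a description and no test was run on them.

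An oak seedling first forms a taproot, whose tip holds a meristematic zone where cells divide and, behind it, an elongation zone where they expand, and lateral roots branch from the older part. In a container the taproot tip dies back once it meets air at the bottom, a process named air pruning, whereas a rhizotron is a flat chamber with clear walls in which the taproot can keep growing. In a plant transcriptome a small set of genes commonly takes up a large part of the mRNA, among them genes of protein synthesis, cell walls and stress proteins. The genes here carry identifiers of the merged transcript assembly (MSTRG followed by a number). The files do not pair these identifiers with gene names, so that no function and no sequence can be given for them, and genes are described by their values alone.

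Libraries came from 55 groups of 3 biological replicates, with 25 groups in Dataset 1 and the other 30 in Dataset 2. Dataset 1 holds taproot meristematic zones (16 groups) and lateral roots (9 groups) of seedlings from 3 harvests, the first at 7 weeks and the second and the third at 8 weeks, with the third sown in early summer and the others in early spring. Dataset 2 holds meristematic zones (13 groups), elongation zones (10 groups) and lateral roots (7 groups), from acorns of the same lot stored for longer before sowing and from transplanted seedlings, which were raised in a container and moved to a rhizotron in the following year. Within these, a group is defined by the taproot length (short, medium or long), the state (normal, thick, dying, or thick and dying) and the cultivation (container, rhizotron or transplanted). The labels give lateral roots a length and a state too, although the study's methods define these classes for taproots. Plants of both cultivations grew in the same fertilized peat and perlite, and the transplanted seedlings were older than all others. Length and state were observed at harvest and not imposed, so that other differences between such seedlings are not controlled.

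Expected counts summed to 20037169 to 33341476 per library, with medians of 22351942 in Dataset 1 and 30569090.5 in Dataset 2. Many libraries of a group were close to each other. In 74 of the pairs of libraries within groups (3 pairs per group), the coefficient of variation beyond counting noise was under 0.05 (5147 genes of medium abundance), against a median of 0.368 between groups of a dataset, although even the closest pair varied 1.4 times more than counting gives. Summed into units, such near-identical libraries left 56 units in Dataset 1 and 51 in Dataset 2, and p-values from 3 libraries may then measure technical spread. Libraries 2 and 3 of the dying long container taproots of the second harvest were near-identical to libraries of the normal long rhizotron taproots of that harvest (coefficient of variation 0.0312 to 0.0451). The code and the description of the sample conflict for 2 groups, long container taproots of the first harvest and long dying transplanted meristematic zones, which were used by their codes. The description of the former says short, and that of the latter does not state that the roots were dying. *PIN2*, a gene of the root tip in *Arabidopsis thaliana*, had a median of 37.5 TPM in meristematic zones of Dataset 1 and 32.6 TPM in those of Dataset 2, against 1.31 TPM in elongation zones, 7.96 TPM in lateral roots of Dataset 1 and 21.3 TPM in lateral roots of Dataset 2. Within meristematic zones it ranged from 0.07 to 88.6 TPM, with 26.3 TPM as the lowest value of normal roots and lower values in thick, dying, and thick and dying roots only.

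The 60 genes held between 10.7% and 51.4% of the counts of a library, with a median of 15.1%. By group means, they held 21.3% ± 11.1 (SD, n = 9 groups) in lateral roots of Dataset 1, 16.1% ± 2.57 (n = 16) in meristematic zones of Dataset 1, 13.7% ± 1.36 (n = 7) in lateral roots of Dataset 2, 16.6% ± 1.54 (n = 10) in elongation zones and 14.8% ± 2.23 (n = 13) in meristematic zones of Dataset 2. The mean of Dataset 1 lateral roots and its wide spread rested largely on a single group. Thick medium lateral roots from the rhizotron at the second harvest had 49.0% ± 3.96 (SD, n = 3) of their counts in the 60 genes, and the group next to it, normal medium lateral roots of the first harvest, had 23.7% ± 1.37. The lowest group was short container taproots of Dataset 2, with 12.1%. The number of genes that together reached 50% of the counts showed the same contrast, with 31 in the most concentrated library, 968 in the median library and 1302 in the least concentrated.

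**Figure D1:**
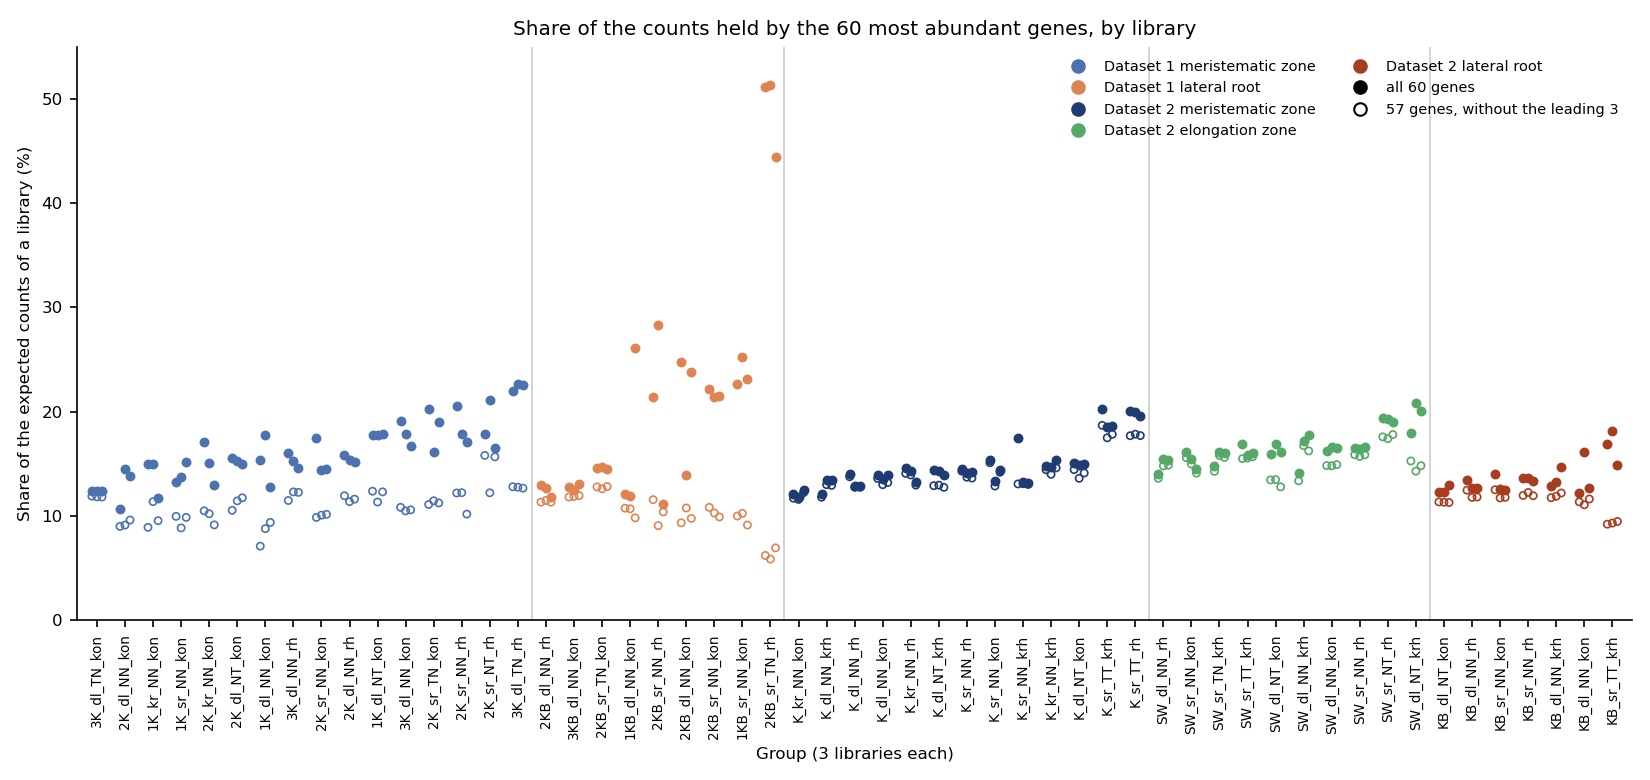
Share of the expected counts (%) held by the 60 genes in each library (filled points) and by the 57 genes that remain without the leading 3 (open points), with 3 libraries per group and groups sorted by their mean within each root part. Thick medium rhizotron lateral roots (2KB_sr_TN_rh) reach 44.4% to 51.4%, while their open points are the lowest on the plot. Open points are shares of all counts, those of the leading 3 included, and so fall where the leading 3 take more. Codes give the harvest (Dataset 1 only), root part (K meristematic zone, SW elongation zone, KB lateral root), length (kr short, sr medium, dl long), state (NN normal, TN thick, NT dying, TT thick and dying) and cultivation (kon container, rh rhizotron, krh transplanted).

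A set of 3 genes made most of this variation. MSTRG.22495 had the highest mean share (1.87%), followed by MSTRG.34873 (1.11%) and MSTRG.31997 (1.06%). Together they held 0.118% to 45.5% of the counts of a library, with a median of 1.64%, whereas the other 57 genes held 5.83% to 18.7%, with a median of 12.2%. Both, here and below, are shares of all counts, so that the share of the 57 genes falls where the 3 genes take more. The 3 genes exceeded 5% of the counts in 43 libraries. These were 14 of the 27 lateral root libraries and 23 of the 48 meristematic libraries of Dataset 1, 4 of the 21 lateral root libraries and 2 of the 30 elongation libraries of Dataset 2, and 0 of its 39 meristematic libraries, so that high values were a feature of Dataset 1 more than of a root part. In the 3 thick medium rhizotron lateral root libraries, MSTRG.31997 held 19.3%, 20.4% and 17.0% of the counts, MSTRG.34873 held 12.5%, 12.8% and 11.03%, and MSTRG.22495 held 13.2%, 12.3% and 9.48%. Each of the 9 values lay above those of the same gene in every other library, apart from the 9.48%, which is below a single library of normal roots of the same class (11.03%).

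The 3 genes went up and down together. Across the 55 group means their log2 shares had pairwise Pearson correlations with a lowest value of 0.953, and across libraries of a dataset the correlations of the shares ran from 0.897 to 0.979, a description over libraries that share groups and were scaled to 1 total. Their values differed strongly between libraries of a group. In normal medium transplanted meristematic zones, MSTRG.22495 held 1.89%, 0.0514% and 0.0583% of the counts, MSTRG.34873 held 1.46%, 0.0429% and 0.0496%, and MSTRG.31997 held 1.10%, 0.0320% and 0.0355%. Library 1 thus exceeded library 2 by 36.1, 33.3 and 33.4 times in the 3 genes, while none of the other 57 genes differed by more than 1.10 times between the same libraries. MSTRG.22495 likewise held 0.743%, 0.622% and 7.79% in normal long container lateral roots of the first harvest, and 5.48%, 11.03% and 0.432% in normal medium rhizotron lateral roots of the second harvest. In the 74 near-identical pairs of libraries, MSTRG.22495 differed by a median of 1.20 times and up to 4.69 times, against a median of 1.02 times for the other 57 genes. Expected counts of MSTRG.22495, MSTRG.34873 and MSTRG.31997 were whole numbers in only 13.3%, 6.67% and 13.3% of libraries, which shows that the authors' estimation divided reads between each of them and other genes, so that their single levels are uncertain.

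**Figure D2:**
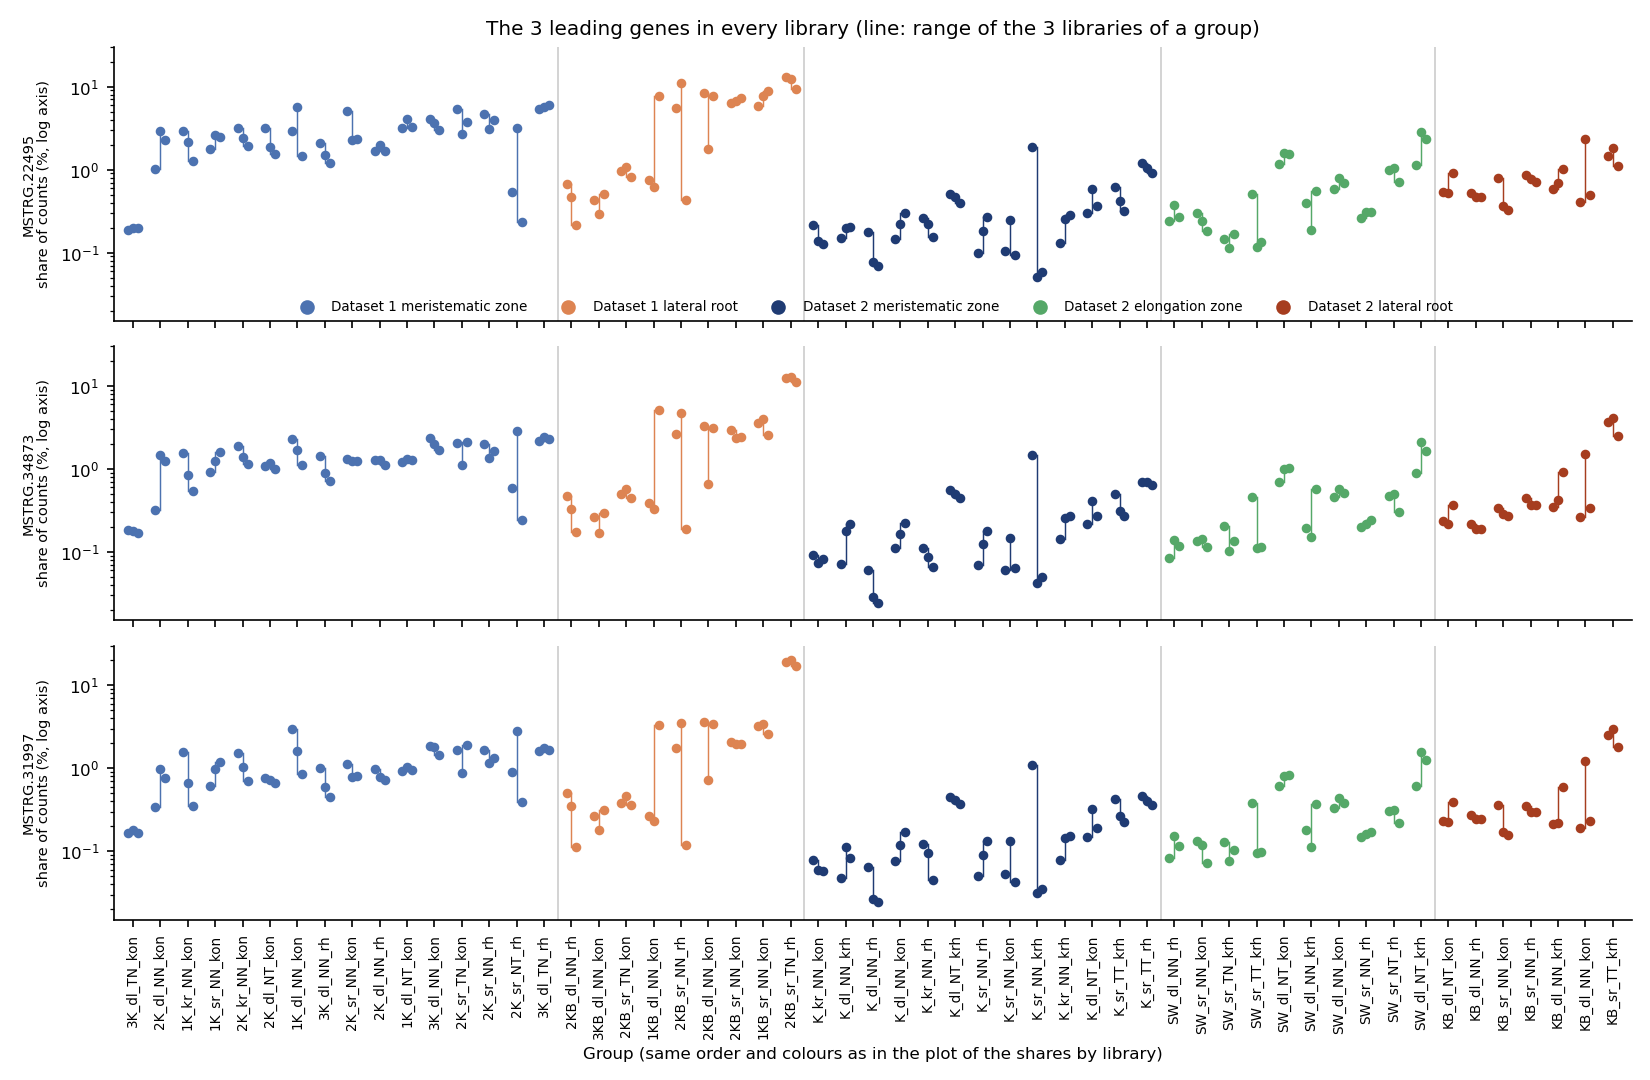
Share of the expected counts (%, log axis) of MSTRG.22495, MSTRG.34873 and MSTRG.31997 in every library, with 1 point per library and a line over the range of the 3 libraries of a group. The 3 panels have the same shape, and in several groups a single library lies apart from the others, as in normal medium transplanted meristematic zones (K_sr_NN_krh), where MSTRG.22495 was 1.89%, 0.0514% and 0.0583%.

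The genes next in rank were steadier than these, though not constant. MSTRG.27012 was at 0.195% in a meristematic library of Dataset 1 and at 1.94% in an elongation library. MSTRG.27012 held 0.871% on average, was among the 60 highest genes of each of the 55 groups and was the highest gene in 16 of them, with group means up to 1.81%. MSTRG.15428 held 0.717%, with group means up to 2.31%, and had the highest level per length of the 60 genes, 13110 TPM on average, against 12592 TPM for MSTRG.31997 and 9409 TPM for MSTRG.22495. Its effective length, derived from the ratio of count to TPM, was 0.41 of the median gene. At the limit of the ranking, MSTRG.22579 (0.1057%) and MSTRG.10220 (0.1056%) were the last genes taken, and MSTRG.18395 (0.1039%) and MSTRG.16953 (0.1035%) were the first left out, so that the boundary is not a gap.

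MSTRG.15428 was part of a further set, singled out after its values were seen. Together with MSTRG.15420, MSTRG.15422 and MSTRG.15424 it makes 4 genes with neighbouring numbers in the assembly, effective lengths of 0.41 to 0.461 of the median gene, and whole counts in 4.24% to 10.3% of libraries. Reads were therefore divided among these genes or others like them, and which genes shared them is not known. The sum is firmer than its parts only as far as the 4 genes shared reads with each other. The 4 genes together held a mean of 1.17% of the counts, from 0.114% to 5.21% by library. The sum was highest in dying medium rhizotron elongation zones, with 5.08% ± 0.119 (SD, n = 3), and next in thick and dying medium rhizotron meristematic zones, with 3.39% ± 0.0600. In those elongation zones MSTRG.15428 alone held 2.27%, 2.28% and 2.39% in the 3 libraries, against 0.0918%, 0.144% and 0.105% in normal medium container taproots of the first harvest.

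As a set the 60 genes were neither short nor long. Their median effective length was 0.922 of the median gene of a library (range 0.225 to 2.25), against 0.912 for the 21712 genes with a value, and 41 of them were also among the 60 highest by mean TPM. Counts were whole in every library for 31 of them (51.7%), against 64.7% of the 23701 genes with a mean count of at least 10, and whole in under 10% of libraries for 7 (11.7%), against 5.53%. Their shares varied more over the groups than those of the 23701 genes, with a median SD of log2 share of 0.60 against 0.43. The ranking used these shares, so that this is a description, and the part of the ranking in it was not tested. Of the 60 genes, 12 were in the top 60 of all 55 groups. A group's own top 60 held 36 to 53 of them.

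By the pattern over the 55 groups the 60 genes fell into 3 large sets, the 3 leading genes and 2 single genes. The sets were cut at a correlation of 0.4, which was set with the values in view. Counts of calls by set, in all comparisons below, describe the same libraries from which the sets were formed. Their directions were thus largely fixed in advance, and they are no independent evidence. A set of 22 genes was highest in meristematic zones. It held 4.42% ± 0.963 (SD, n = 16 groups) of the counts there in Dataset 1 and 4.40% ± 0.960 (n = 13) in Dataset 2, against 2.63% ± 0.198 and 3.13% ± 0.480 in lateral roots and 2.89% ± 0.259 in elongation zones. A second set, of 18 genes, contained MSTRG.27012, MSTRG.15428 and the 3 genes numbered next to the latter. Its summed share was highest in elongation zones, with 8.67% ± 1.23. It held 6.87% ± 2.40 in meristematic zones of Dataset 2 and 3.87% ± 0.608 in lateral roots there. The remaining set, of 15 genes, was highest in lateral roots. It held 4.25% ± 0.981 in lateral roots of Dataset 1 and 4.0% ± 0.634 in those of Dataset 2, against 1.84% ± 0.552 and 2.37% ± 0.298 in meristematic zones and 3.27% ± 0.468 in elongation zones.

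**Figure D3:**
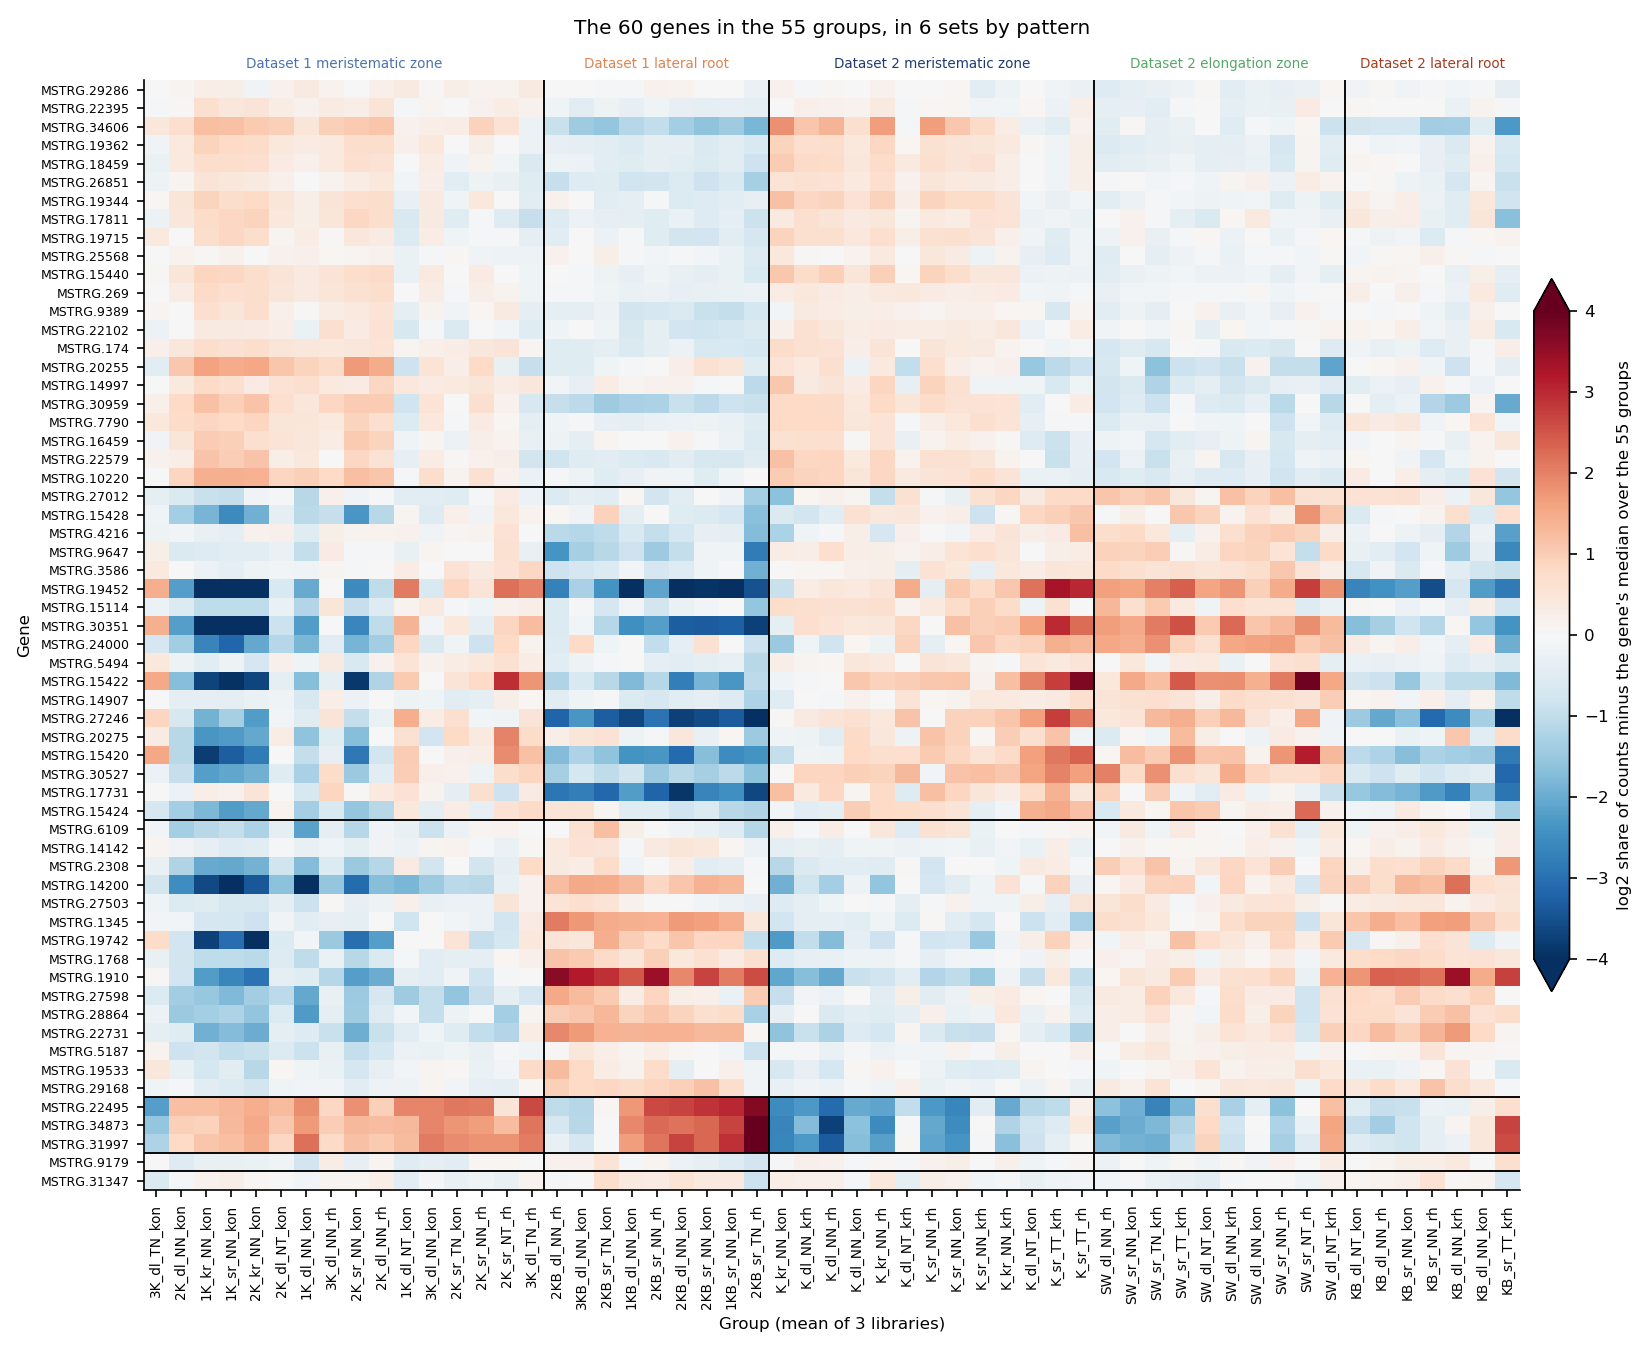
Log2 share of the counts of each of the 60 genes (rows) in each of the 55 groups (columns, means of 3 libraries), relative to the median of the gene over the groups, with values beyond 4 shown at the end of the scale. Black lines part the 6 sets of genes and the 5 root parts, and from top to bottom the sets are the 22, 18 and 15 genes described above, the 3 leading genes and 2 single genes.

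The groups were then compared gene by gene, in matched pairs of groups that differ in 1 class only, by edgeR's quasi-likelihood test over all genes with an adjusted p threshold of 0.05. All 60 genes passed the filter on low counts in each of the 10 comparisons. They were chosen for abundance, whereas the background of all genes tested holds genes of any abundance that passed the filter. A share of calls above this background is thus no result about the set, and the part of abundance was not tested. Overlap of libraries between the arms was examined for the 60 genes only. Counts of genes without overlap thus lack a share of all genes and are no result about the 60 genes. Log2 fold changes are relative to the bulk of genes. With library size alone as the scale, the median of all genes moved by -0.333 to 0.157, and by over 0.1 in 5 of the fits, so that small fold changes depend on the scale. In bulk samples fewer cells of a type and less RNA per cell cannot be told apart. Where a count from an alternative fit stands without a share of all genes, it shows only how the number of calls moved. Such a count is no result about the 60 genes.

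**Figure D4:**
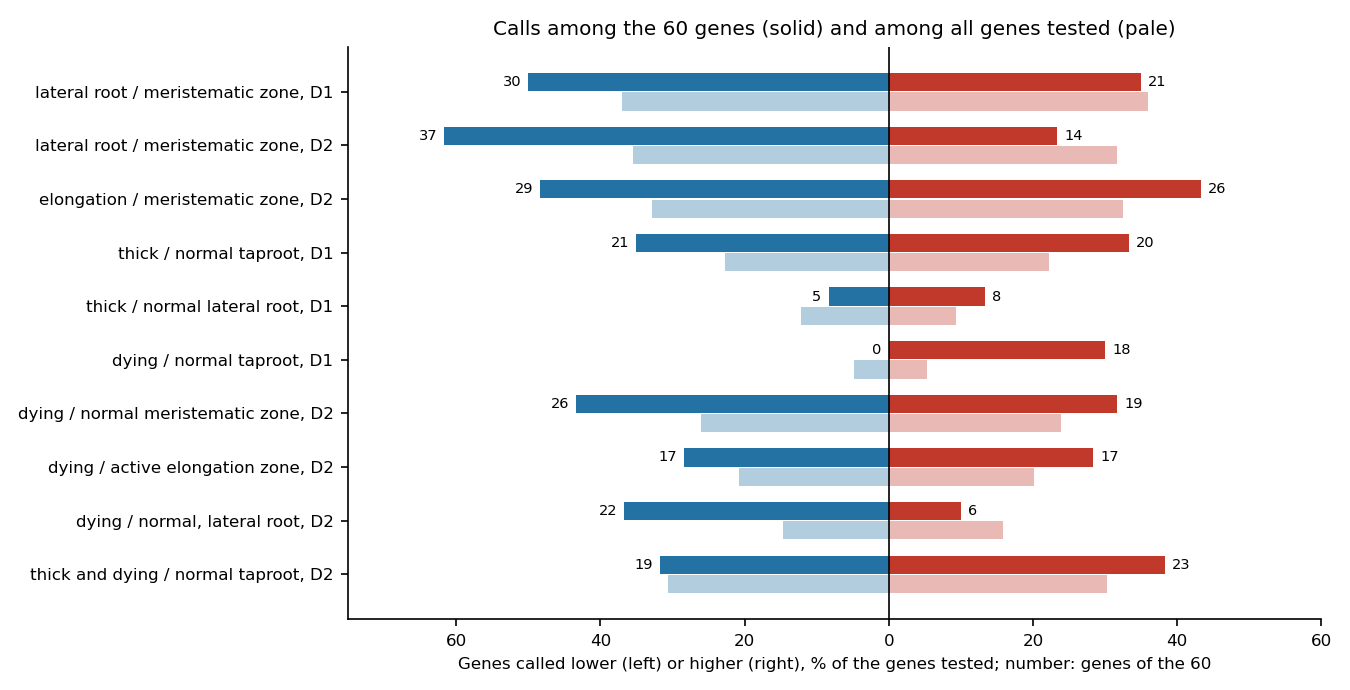
Share of genes called lower (left, blue) and higher (right, red) at an adjusted p under 0.05 in each of the 10 comparisons, among the 60 genes (solid bars, with their number) and among all genes tested (pale bars). The widest gaps between solid and pale bars are those of lateral roots of Dataset 2 to the left (37 genes) and dying taproots of Dataset 1 to the right (18 genes).

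Lateral roots of Dataset 1 were compared with taproot meristematic zones of the same harvest, length, state and cultivation, in 8 pairs of groups. Among the 60 genes, 21 were higher in lateral roots and 30 were lower. Among all 26981 genes tested, of any abundance, 36.0% were called higher and 37.0% lower. The share of higher genes was near this unmatched background and that of lower genes above it. The 15 genes of the lateral root set were all higher and the 22 of the meristematic set all lower. The sets were formed from values that include these libraries, so that these directions are no independent result. The largest rise was that of MSTRG.1910, which held 0.193%, 0.422% and 0.791% (lowest, median and highest of 24 libraries) in lateral roots against 0.00528%, 0.0292% and 0.0592% in meristematic zones. The log2 fold change was 4.01 (SE 0.205, adjusted p = 2.96e-21, higher in 8 of 8 pairs), and no lateral root library overlapped the meristematic ones. MSTRG.14200 followed with 0.233%, 0.420% and 0.554% against 0.00242%, 0.0379% and 0.102% (log2 fold change 3.74, SE 0.283, adjusted p = 1.10e-15), again with no overlap. Both rose in each pair and were among the least abundant of the 60 in meristematic zones. The largest fall was that of MSTRG.17731, from a median of 0.136% in meristematic zones (0.0429% to 0.216%) to 0.0162% in lateral roots (0.00747% to 0.0405%), a log2 fold change of -3.02 (SE 0.152, adjusted p = 1.86e-21). MSTRG.27246 had medians of 0.102% (0.0255% to 0.292%) and 0.0126% (0.00596% to 0.0312%), a log2 fold change of -3.01 (SE 0.156, adjusted p = 4.52e-21). Ranked in the libraries outside this comparison, 55 of the 60 genes would have been chosen, and MSTRG.1910 would not. MSTRG.22495, MSTRG.34873 and MSTRG.31997 were not called, with log2 fold changes of -0.21 (SE 0.418), -0.18 (SE 0.398) and -0.14 (SE 0.405) and a higher value in lateral roots in 3 of 8 pairs each. *PIN2* was at 6.40 to 24.7 TPM in these lateral roots and 15.1 to 88.6 TPM in the meristematic zones, and its part in the result was not tested. The total share of the 60 genes was higher in lateral roots in 5 of 8 pairs, with differences from -5.13 to 9.65 percentage points, and thus without a common direction. Without the pair that holds the libraries near-identical to those of another group, 21 genes were higher and 28 lower.

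The same comparison in Dataset 2, with 7 pairs of groups and no library in common with Dataset 1, gave 14 genes higher and 37 lower in lateral roots, against 31.7% and 35.4% of all genes tested. Of all called genes 47.3% were higher, and 60.1% without TMM factors, where 17 of the 60 genes were higher and 30 lower. The total share of the 60 genes was lower in lateral roots in all but 1 of the 7 pairs, with means of 13.7% and 14.7%, and without the 3 leading genes it was lower in every pair, with means of 11.4% and 14.1%. The meristematic set was lower in 20 of its 22 genes and the set of 18 genes in 16, with median log2 fold changes of -0.62 and -0.98. The lateral root set was higher in 11 of its 15 genes and lower in 1. MSTRG.19452 held 0.0141%, 0.0313% and 0.117% (lowest, median and highest of 21 libraries) in lateral roots against 0.129%, 0.248% and 1.99% in meristematic zones, a log2 fold change of -3.57 (SE 0.295, adjusted p = 3.58e-13) with no overlap. MSTRG.27246 held 0.00663%, 0.0320% and 0.0582% against 0.135%, 0.217% and 1.07%, a log2 fold change of -3.33 (SE 0.285, adjusted p = 8.68e-13), also with no overlap. The highest meristematic values of both were those of thick and dying taproots. MSTRG.1910 rose again, from 0.0126%, 0.0265% and 0.0928% to 0.140%, 0.259% and 0.712%, a log2 fold change of 3.25 (SE 0.200, adjusted p = 8.62e-17), without overlap. MSTRG.31997 rose by 1.80 on the log2 scale (SE 0.246, adjusted p = 5.36e-08), from a median of 0.113% (0.0245% to 0.434%) to 0.271% (0.157% to 3.00%), with overlap, and was higher in 7 of 7 pairs. Ranked in the libraries outside this comparison, 59 of the 60 genes would have been chosen, these 4 among them. *PIN2* was at 2.35 to 37.1 TPM in these lateral roots and 6.08 to 67.7 TPM in the meristematic zones.

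In both datasets 11 genes were higher and 28 were lower in lateral roots, and 4 were higher in Dataset 1 and lower in Dataset 2. The share of all genes with such calls in both datasets was not determined, so that these numbers are no result about the 60 genes. Among the 4 was MSTRG.15428, with log2 fold changes of 0.95 (SE 0.144, adjusted p = 1.47e-07) in Dataset 1 and -0.38 (SE 0.164, adjusted p = 0.0399) in Dataset 2. The difference between the datasets was also tested by an interaction term. The lateral root effect was higher in Dataset 2 for 13 of the 60 genes and lower for 30, where 21.0% and 21.1% of all genes tested were called. Of all called genes 49.9% were higher, and 64% without TMM factors, where 14 of the 60 genes were higher and 24 lower. With near-identical libraries merged, 1 and 20 of the 60 genes were called. The datasets differ in year and in the age of the acorns, and Dataset 2 includes transplanted seedlings. The matched pairs also differ in state. Those of Dataset 2 include a dying pair and a thick and dying pair, and those of Dataset 1 a thick pair and no dying roots. These differences between the datasets cannot be told apart here.

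Elongation zones were compared with meristematic zones of the same taproot class in 8 pairs of groups of Dataset 2, which share meristematic libraries with the comparison of lateral roots. Here 26 of the 60 genes (43.3%) were higher in elongation zones and 29 (48.3%) were lower. Both lay above the 32.5% and 32.8% of all genes tested, a background not matched for abundance. Of all called genes 49.7% were higher, and 61.9% when libraries were scaled by the counts of the other genes, where 27 of the 60 genes were higher and 24 lower. Fold changes were smaller than for lateral roots, from -1.16 to 1.60 on the log2 scale. The lower genes again included all 22 of the meristematic set. The lateral root set was higher in 14 of its 15 genes, whereas the set with its highest share in elongation zones was higher in 9 of its 18 genes and lower in 5. MSTRG.30959 had a median of 0.0715% (0.0462% to 0.103%, 24 libraries) in elongation zones and 0.149% (0.0735% to 0.191%) in meristematic zones, a log2 fold change of -1.16 (SE 0.108, adjusted p = 1.77e-12). MSTRG.10220 had medians of 0.0582% (0.0470% to 0.0760%) and 0.116% (0.0658% to 0.174%), a log2 fold change of -1.02 (SE 0.0890, adjusted p = 3.87e-13), and the ranges of both genes overlapped. Among the higher genes, MSTRG.1910 rose by 1.60 (SE 0.116, adjusted p = 1.48e-15), from 0.0296% (0.0126% to 0.0928%) to 0.0912% (0.0282% to 0.152%). MSTRG.22731 rose by 0.93 (SE 0.0620, adjusted p = 1.98e-16), from 0.0671% (0.0373% to 0.110%) to 0.134% (0.0889% to 0.205%). Each of these 4 genes kept its direction in 8 of 8 pairs. MSTRG.27012 was higher in elongation zones (log2 fold change 0.52, SE 0.121, adjusted p = 0.000231, higher in 6 of 8 pairs). MSTRG.22495, MSTRG.34873 and MSTRG.31997 were higher by 1.01, 0.94 and 1.00 (adjusted p = 8.01e-05, 0.000136 and 8.52e-05, higher in 7 of 8 pairs each). The total share of the 60 genes was higher in elongation zones in 7 of 8 pairs, with means of 16.5% and 14.6%. The exception was the thick and dying transplanted taproots, with a difference of -2.88 percentage points. *PIN2* was at 0 to 9.85 TPM in these elongation zones and 6.08 to 67.7 TPM in the meristematic zones.

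Thick taproots of Dataset 1, still growing at harvest, were compared with normal taproots in 3 pairs of groups, medium container taproots of the second harvest and long container and long rhizotron taproots of the third. Of the 60 genes, 20 were higher and 21 lower in thick taproots, against 22.3% and 22.7% of all genes tested. Of all called genes 49.6% were higher, and 63% when libraries were scaled by the counts of the other genes, where 23 of the 60 were higher and 21 lower. The meristematic set fell in 19 of its 22 genes, and 10 genes each of the set of 18 genes and of the lateral root set rose. MSTRG.19452 held 0.276%, 0.477% and 0.722% (lowest, median and highest of 9 libraries) in thick taproots against 0.00946%, 0.113% and 0.181% in normal taproots, with no overlap (log2 fold change 2.42, SE 0.346, adjusted p = 2.46e-05). MSTRG.15422 rose by 2.64 (SE 0.412, adjusted p = 5.91e-05), from 0.00367%, 0.0509% and 0.106% to 0.0914%, 0.253% and 0.311%, with ranges that overlapped only at their ends. MSTRG.20255 fell by 1.46 on the log2 scale (SE 0.0930, adjusted p = 3.27e-09), from 0.131%, 0.189% and 0.335% to 0.0521%, 0.0738% and 0.127%, with no overlap. MSTRG.17811 fell by 1.19 (SE 0.0890, adjusted p = 2.33e-08), from 0.201%, 0.243% and 0.297% to 0.0864%, 0.121% and 0.142%, also with no overlap. Each direction held in 3 of 3 pairs. Of the 60 genes, 18 had no overlap between the arms, with no share of all genes determined. The 3 leading genes were not called (log2 fold changes of -0.45, SE 0.797, -0.47, SE 0.625, and -0.28, SE 0.624), and the total share was higher in thick taproots in 2 of 3 pairs, by 3.01 and 7.09 percentage points, and different by -5.52 in long container taproots. Without the 3 leading genes it was higher in all 3 pairs, by 0.726 to 1.24. *PIN2* was at 13.04 to 22.03 TPM in thick and 34.8 to 52.3 TPM in normal taproots, without overlap, and its part in these differences was not tested.

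Thick lateral roots of Dataset 1 were compared with normal ones in 2 pairs of groups, medium container and medium rhizotron roots of the second harvest. In the container the 60 genes held 14.6% ± 0.136 (SD, n = 3) of the counts in thick roots and 21.7% ± 0.418 in normal roots. In the rhizotron the order was the reverse, with 49.0% ± 3.96 in thick roots and 20.3% ± 8.66 in normal roots. Without MSTRG.22495, MSTRG.34873 and MSTRG.31997 the thick rhizotron roots were lower by 4.01 percentage points (6.31% against 10.3%). These are still shares of all counts, of which the 3 genes held 42.7% in thick and 9.96% in normal rhizotron roots. The share of the remaining counts was not determined, so that this difference shows no fall of the other genes as such. Since the 3 genes moved in opposite directions in the 2 pairs, none of them was called (log2 fold changes of -0.68, SE 1.08, 0.17, SE 1.28, and 0.75, SE 1.67). Altogether 8 of the 60 genes were higher and 5 lower, against 9.32% and 12.2% of all genes tested. These counts depended on the thick rhizotron group, whose TMM factors were as low as 0.665. Without TMM factors 0 of the 60 genes were higher by edgeR's test (1 at an unadjusted p under 0.05) and 9 were lower, DESeq2 called 15 higher and 7 lower, and the container pair alone gave 15 and 14. Leaving out libraries 1, 2 or 3 of each group gave 10, 3 and 3 higher and 3, 2 and 3 lower. MSTRG.27598 held 0.263%, 0.257% and 0.260% in thick and 0.135%, 0.154% and 0.138% in normal container roots, and 0.236%, 0.231% and 0.295% in thick and 0.184%, 0.186% and 0.310% in normal rhizotron roots. Its log2 fold change was 0.78 (SE 0.0950, adjusted p = 0.000259), and 0.52 (adjusted p = 0.0639) without TMM factors. MSTRG.2308 was higher by 0.82 (SE 0.234, adjusted p = 0.0266), but at 0.253% in 1 normal container library against 0.0913% and 0.0919% in the others, and it was no longer called without TMM factors (adjusted p = 0.189) or without libraries 2 or 3. MSTRG.9647 fell in both pairs, from 0.406%, 0.375% and 0.380% to 0.199%, 0.194% and 0.197% in container roots and from 0.156%, 0.140% and 0.168% to 0.0608%, 0.0579% and 0.0642% in rhizotron roots, a log2 fold change of -0.90 (SE 0.0920, adjusted p = 9.35e-05). MSTRG.3586 fell by 0.58 on the log2 scale (SE 0.0740, adjusted p = 0.000342), from a median of 0.300% (0.206% to 0.345%) to 0.184% (0.0923% to 0.262%). The last pair of genes kept their call in every alternative. *PIN2* was at 7.2 to 9.84 TPM in thick and 6.40 to 9.01 TPM in normal lateral roots.

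The effect of thickness itself was compared between root types by an interaction term. It was higher in lateral roots than in taproots for 23 of the 60 genes and lower for 14, against 16.9% and 18.2% of all genes tested. Of all called genes 48.1% were higher, and 17.8% without TMM factors, where 16 of the 60 genes were higher and 22 lower. Without the rhizotron lateral pair, 21 were higher and 8 lower.

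Dying taproots of Dataset 1 were compared with normal ones in 3 pairs of groups, long container taproots of the first and of the second harvest and medium rhizotron taproots of the second. Here 18 of the 60 genes were higher in dying taproots, against 5.36% of all genes tested, and 0 were lower, against 4.85%, by edgeR's test. At an unadjusted p under 0.05, 25 were higher and 4 lower, and DESeq2 called 21 and 1. Among all called genes 52.5% were higher, and 34.4% without TMM factors, where 17 of the 60 genes were higher and 1 lower. The higher genes were 12 of the set of 18 genes and 6 of the 15 of the lateral root set. MSTRG.19452 held 0.735%, 0.792% and 0.727% in dying and 0.0153%, 0.0948% and 0.0188% in normal taproots of the first harvest. At the second harvest it held 0.175%, 0.0898% and 0.0840% against 0.0143%, 0.05% and 0.0488% in long container taproots, and 1.01%, 0.365% and 1.06% against 0.360%, 0.351% and 0.0384% in medium rhizotron taproots. In each pair every dying library lay above every normal library, with a log2 fold change of 2.52 (SE 0.557, adjusted p = 0.0142). MSTRG.15422 rose by 2.18 (SE 0.456, adjusted p = 0.0112), with 0.0474%, 0.196% and 0.834% as lowest, median and highest of 9 dying libraries and 0.00553%, 0.0363% and 0.219% of 9 normal libraries. The calls rested on all libraries together. Leaving out libraries 1, 2 or 3 of each group left 0, 1 and 0 of the 60 genes called higher (21, 21 and 19 at an unadjusted p under 0.05), and merging near-identical libraries left 5. Without the first-harvest pair, in which labels conflict, 0 were called in either direction by edgeR (19 higher and 0 lower unadjusted). The 18 genes kept their direction in every alternative. The dying container group of the second harvest holds the libraries near-identical to normal rhizotron ones, and *PIN2* in its 3 libraries was at 6.18, 70.1 and 72.9 TPM, against 1.57 to 23.4 TPM in the other dying groups and 26.8 to 55.6 TPM in the normal ones. Without this pair, 18 of the 60 genes were higher and 6 lower.

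In Dataset 2, dying meristematic zones of long taproots were compared with normal ones in container and in transplanted seedlings, with 2 pairs of groups. Of the 60 genes 19 were higher and 26 lower in dying taproots, against 23.9% and 26.0% of all genes tested. The meristematic set was lower in 21 of its 22 genes. MSTRG.20255 fell from 0.0850%, 0.0985% and 0.166% (lowest, median and highest of 6 libraries) to 0.0330%, 0.0425% and 0.0527%, a log2 fold change of -1.43 (SE 0.114, adjusted p = 1.49e-06). MSTRG.34606 fell from 0.336%, 0.385% and 0.548% to 0.169%, 0.203% and 0.219%, a log2 fold change of -1.10 (SE 0.1, adjusted p = 4.20e-06). Neither gene overlapped between the arms, as was true of 27 of the 60 genes, with no share of all genes determined. MSTRG.19452 rose from 0.147%, 0.231% and 0.311% to 0.491%, 0.627% and 0.830%, a log2 fold change of 1.43 (SE 0.163, adjusted p = 2.31e-05), again with no overlap, and MSTRG.31997 rose by 1.54 (SE 0.333, adjusted p = 0.00231), from 0.0474%, 0.0981% and 0.169% to 0.151%, 0.348% and 0.448%, with a small overlap. The total share was higher in dying taproots by 1.22 and 1.24 percentage points. Most libraries of these groups were near-identical, and with such libraries merged into 6 units 0 of the 60 genes were called by edgeR (13 higher and 18 lower at an unadjusted p under 0.05), and 81 higher and 349 lower among all genes. Leaving out library 2 of each group left 12 genes higher and 20 lower. The dying state of the transplanted group is given by its code and not by its description, and without this pair 17 genes were higher and 26 lower, with a log2 fold change of 0.84 (adjusted p = 0.00107) for MSTRG.31997. *PIN2* was at 6.08 to 25.3 TPM in dying and 29.7 to 67.7 TPM in normal meristematic zones, without overlap.

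Elongation zones of dying taproots were compared with those of taproots that were not dying in 4 pairs of groups, among them thick and dying against thick transplanted roots. Both directions were equal, as 17 of the 60 genes were higher and 17 lower, against 20.1% and 20.8% of all genes tested. MSTRG.22495 held 0.119%, 1.10% and 2.85% (lowest, median and highest of 12 libraries) in dying and 0.115%, 0.307% and 0.789% in other elongation zones, and MSTRG.31997 held 0.0957%, 0.498% and 1.60% against 0.0769%, 0.165% and 0.443%. They rose by 1.48 (SE 0.271, adjusted p = 0.000167) and 1.23 (SE 0.274, adjusted p = 0.00110) on the log2 scale and in 4 of 4 pairs, although the ranges overlapped widely. MSTRG.15114 fell from 0.387%, 0.400% and 0.813% to 0.188%, 0.236% and 0.367%, a log2 fold change of -0.86 (SE 0.0810, adjusted p = 5.93e-08) with no overlap. MSTRG.9647 fell from 0.518%, 0.763% and 1.06% to 0.219%, 0.477% and 0.753%, a log2 fold change of -0.80 (SE 0.136, adjusted p = 7.17e-05), and was lower in 4 of 4 pairs, with pair differences from -1.41 to -0.02. MSTRG.27012 was lower in dying zones (log2 fold change -0.66, SE 0.0640, adjusted p = 9.85e-08) and MSTRG.15428 higher (0.94, SE 0.154, adjusted p = 4.97e-05), each in 4 of 4 pairs. The 6 calls of higher genes in the meristematic set, against 1 lower, differ in direction from the 21 lower calls of the same set in dying meristematic zones, a difference that was not tested. With near-identical libraries merged into 11 units, 0 of the 60 genes were called in either direction by edgeR (11 higher and 12 lower at an unadjusted p under 0.05), and among all genes 0 and 4. Most of these libraries also stand in the comparison of elongation with meristematic zones. *PIN2* was at 0 to 9.85 TPM in dying and 0.14 to 2.88 TPM in other elongation zones, and its part was not tested.

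Lateral roots labelled long, dying and from containers were compared with normal ones in 1 pair of groups, with 3 libraries each. Only 6 of the 60 genes were higher and 22 lower, against 15.8% and 14.7% of all genes tested. Of all called genes 51.9% were higher, and 64.2% without TMM factors, where 8 of the 60 were higher and 16 lower. Differences were small. MSTRG.15420 held 0.0491%, 0.0494% and 0.0503% in dying and 0.0352%, 0.0364% and 0.0395% in normal lateral roots (log2 fold change 0.38, SE 0.05, adjusted p = 1.77e-05). MSTRG.20275 held 0.142%, 0.139% and 0.151% against 0.0993%, 0.115% and 0.116% (0.34, SE 0.0660, adjusted p = 0.000801), and MSTRG.19452 fell from 0.0341%, 0.0367% and 0.0381% to 0.0264%, 0.0275% and 0.0293% (log2 fold change -0.44, SE 0.0550, adjusted p = 9.43e-06). None of these overlapped. The same was true of 40 of the 60 genes in this comparison of 3 libraries with 3, with no share of all genes determined. The largest fall, that of MSTRG.34873 (log2 fold change -1.43, SE 0.433, adjusted p = 0.0184), rested on 1 normal library, with 0.267%, 1.51% and 0.337% against 0.240%, 0.217% and 0.369%, and it was -0.01 (adjusted p = 0.968) without library 2 of each group. The count of lower genes was likewise unstable, at 34, 7 and 9 without libraries 1, 2 or 3, and with near-identical libraries merged into 3 units 1 gene was higher and 3 were lower. *PIN2* was at 29.25 to 34.04 TPM and 29.2 to 34.3 TPM in the groups.

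Thick and dying meristematic zones of medium taproots were compared with normal ones in transplanted and in rhizotron seedlings of Dataset 2, so that thickness and dying cannot be told apart. The 60 genes held 19.1% ± 0.966 (SD, n = 3) against 14.6% ± 2.502 in transplanted and 19.9% ± 0.229 against 14.3% ± 0.210 in rhizotron seedlings. Of the 60 genes 23 were higher and 19 lower, against 30.3% and 30.6% of all genes tested. Without TMM factors 19 were higher and 24 lower, given without a share of all genes, so that the balance of directions depended on the scale. MSTRG.19452 held 1.99%, 1.68% and 1.59% in thick and dying transplanted taproots against 0.282%, 0.296% and 0.295% in normal ones, and 1.43%, 1.43% and 1.43% against 0.130%, 0.144% and 0.129% in rhizotron taproots. This is a log2 fold change of 3.11 (SE 0.144, adjusted p = 6.08e-09). MSTRG.15422 rose by 2.75 (SE 0.0860, adjusted p = 3.18e-10), from 0.0985%, 0.139% and 0.193% (lowest, median and highest of 6 libraries) to 0.522%, 0.926% and 1.20%. MSTRG.20255 fell by 1.26 on the log2 scale (SE 0.0850, adjusted p = 1.39e-07), from 0.110%, 0.132% and 0.176% to 0.0458%, 0.0539% and 0.0554%. MSTRG.34606 fell by 1.24 (SE 0.0850, adjusted p = 1.54e-07), from 0.360%, 0.520% and 0.772% to 0.160%, 0.206% and 0.255%. None of the 4 genes overlapped between the arms, as was true of 28 of the 60 genes, with no share of all genes determined. With near-identical libraries merged into 7 units 15 of the 60 genes were higher and 15 lower. The set of 18 genes was higher in 14 of them and the meristematic set lower in 18 of its 22. *PIN2* was at 9.11 to 11.4 TPM in the thick and dying transplanted roots and at 0.07 to 0.14 TPM in those of the rhizotron, against 34.3 to 51.7 TPM in normal roots, so that the marker of the root tip was nearly absent from the rhizotron group, and its part in the result was not tested.

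**Figure D5:**
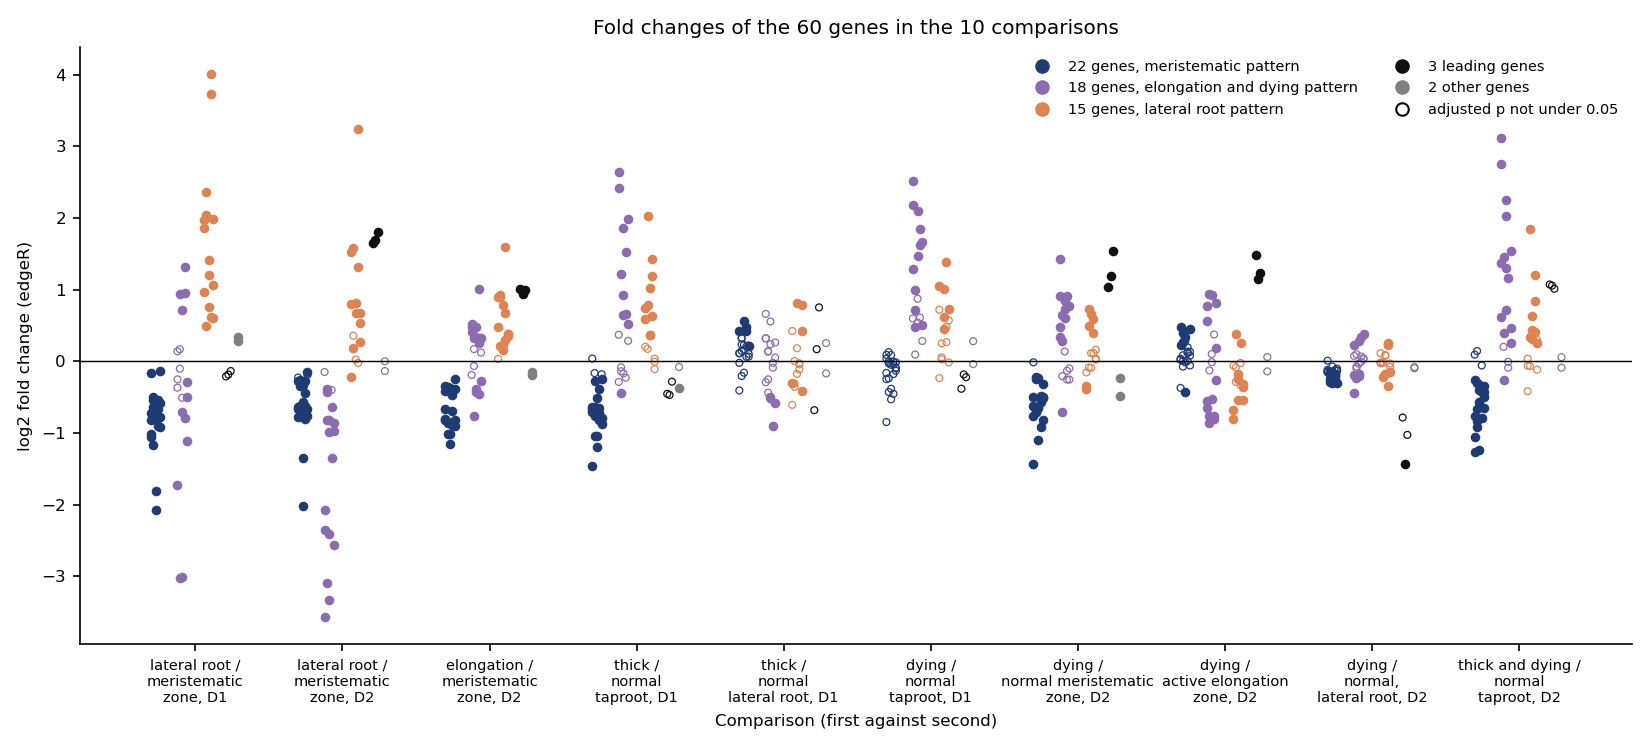
Log2 fold changes (edgeR) of the 60 genes in the 10 comparisons, with 1 point per gene, filled at an adjusted p under 0.05 and coloured by the set of genes. The 22 genes of the meristematic set lie below 0 in lateral roots of both datasets, in elongation zones and in dying meristematic zones of Dataset 2, and the 3 leading genes lie close to each other in most comparisons, with open points in lateral roots of Dataset 1.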

How the data were processed

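RNA-seq values of 165 libraries (55 groups of 3) were used at the gene level. The authors trimmed reads, removed ribosomal RNA, mapped them to the *Q. robur* genome with STAR, merged StringTie assemblies and estimated expression with RSEM on Bowtie 2 alignments, observing strandedness. The expected counts deposited by the authors are estimates of read pairs per gene, neither normalized nor filtered, and fractional where reads fit several genes. The deposited TPM values are the authors' estimates scaled to length and library. Groups were taken from the sample codes.

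Shares, sets and effective lengths were computed in Python 3.11.15 with pandas 2.3.3, numpy 2.4.6, scipy 1.17.1 and matplotlib 3.10.9. Tests used edgeR 4.0.16 in R 4.3.3 on rounded expected counts, with filterByExpr (minimum count 10), TMM, the matched pair of groups as covariate, the quasi-likelihood test and Benjamini-Hochberg adjustment over all genes. SE is the log2 fold change over the square root of F. The edgeR fit was also run on simulated counts in the layouts of the elongation zone and thick lateral root comparisons, drawn without near-identical libraries.

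Named genes are the 5 with the highest share, those at the limit of the ranking, and per comparison at most 2 that rose and 2 that fell most among genes with an adjusted p under 0.05 and 1 direction in every pair. The members, lists and tests were chosen with earlier results of these data known. Alternatives were DESeq2 1.42.0, other scaling, no filter, a replicate block, merged near-identical libraries, other rankings, and omission of replicates, of groups with conflicting labels and, chosen after seeing the data, of the groups near-identical across groups and of the rhizotron lateral pair.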

Additional observations from a re-analysis of the deposited data

Results flagged for a closer look

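Differences between effects, each from an interaction term in edgeR's quasi-likelihood test, were found for several named genes. The log2 fold change of lateral roots was higher in Dataset 2 than in Dataset 1 for MSTRG.31997 (difference of the log2 fold changes 1.96, adjusted p = 0.000731). It was lower for MSTRG.14200 (-2.39, adjusted p = 3.59e-08) and MSTRG.1910 (-0.73, adjusted p = 0.0250), which rose less in Dataset 2, and for MSTRG.19452 (-1.81, adjusted p = 0.000405), which fell further there, with -1.73 in Dataset 1 and -3.57 in Dataset 2. Only the matched pairs of Dataset 2 included dying roots, and the part of root state in these differences was not tested. The log2 fold change of thick against normal roots was lower in lateral roots than in taproots for MSTRG.19452 (-2.09, adjusted p = 0.0234), MSTRG.15422 (-1.97, adjusted p = 0.0111), MSTRG.3586 (-1.09, adjusted p = 1.78e-07) and MSTRG.9647 (-0.67, adjusted p = 0.000976), and higher for MSTRG.17811 (1.35, adjusted p = 1.53e-08), MSTRG.20255 (1.06, adjusted p = 0.000114) and MSTRG.27598 (0.89, adjusted p = 3.70e-06). MSTRG.3586 was called in opposite directions, at 0.52 in taproots and -0.58 in lateral roots. MSTRG.17811 (-1.19 and 0.16) and MSTRG.27598 (-0.11 and 0.78) also differed in sign, but each was called in only 1 of these comparisons.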

How the results depend on the processing

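The numbers of the 60 genes called, the choice of the 60 genes and their share of the counts were repeated under each alternative. Of these values 229 stayed close to the reported one (within 1.5 times for numbers of genes, within 1 SD for shares) and 37 did not. Numbers of genes and shares carry no sign, so that none of these values could reverse. The balance of higher and lower calls did turn round in some fits. In thick lateral roots it went from 8 higher and 5 lower to 0 and 9 without TMM factors. It also turned without TMM factors in thick and dying taproots and for the difference of the thickness effect. Of the values of named genes, 339 kept direction and call and 27 kept the direction but not the call. With near-identical libraries merged, the genes called higher were 0 in dying elongation zones, 0 in dying meristematic zones of Dataset 2, 1 in dying lateral roots, 5 in dying taproots of Dataset 1, 5 in thick lateral roots, 15 in thick and dying taproots and 1 for the difference of the lateral root effect, and those called lower were 0, 0 and 3 in the first 3 of these and 3 in thick lateral roots. Without TMM factors 0 were higher and 9 lower in thick lateral roots, 1 was lower in dying taproots of Dataset 1 and 22 for the difference of the thickness effect, and scaling by the other genes gave 1 lower in dying taproots. DESeq2 called 15 higher in thick lateral roots and 1 lower in dying taproots. Without the rhizotron pair 15 were higher and 14 lower in thick lateral roots and 8 lower for the thickness effect. Without the pair with conflicting labels 0 were higher in dying taproots, and without the pair near-identical across groups 6 were lower. Leaving out 1 replicate gave 0 to 1 higher in dying taproots of Dataset 1, 12 to 14 higher in dying meristematic zones, 3 to 10 higher and 2 to 3 lower in thick lateral roots, and 7 to 34 lower in dying lateral roots. In elongation zones the 60 genes held 18.6% of TPM in place of 16.6% of the counts, and genes ranked in Dataset 1 alone held 15.1%. Of the 60 genes 41 stayed when ranked by TPM, 56 by the median over libraries and 53 in either dataset alone. The cause of these changes was not tested. Replicate numbers were not taken to pair the samples, since the correlations were not over 0.1 throughout. Same-numbered libraries had a median correlation of 0.002 (-0.363 to 0.561, 120 correlations, 21 over 0.1), and each correlated best with its own number in 39 of 120. In lateral roots of Dataset 1 the median was higher, at 0.062, with 11 of 24 over 0.1 and 12 of 24 best with their own number. With a replicate block the number of genes called higher was 21 in lateral roots of Dataset 1, 25 in elongation zones, 16 in dying meristematic zones and 6 in thick lateral roots, all within 1.5 times the values without the block.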
